A study of Mus musculus with 58 samples.

Results

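The hearts compared here came from tumour bearing mice that received whole-body vibration training (T + WBV, 3 mice) and from tumour bearing mice that did not (T, 3 mice). They were chosen by tissue and group as the labels give them, and they are 6 of the 58 arrays of the series. The question was which genes the hearts of trained and untrained tumour bearing mice expressed at different levels, with every mouse shown and each left out in turn. All mice were male CD2F1 (BALB/c x DBA/2), 6 to 8 weeks old, about 20 g and housed singly. T and T + WBV mice were inoculated with C26 adenocarcinoma cells, a mouse colon carcinoma line, under the skin of the right inguinal flank, and control mice (C, and C + WBV with training; 3 hearts each) with Hank's balanced salt solution. Trained mice stood on a vibrating plate for 15 min on 7 days per week, at 45 Hz and an acceleration of 1.0 g, from the day after inoculation. All mice were killed on day 19, at least 24 h after the last session, and blood was drawn from all of them by puncture of the heart before the organs were frozen. The model is 1 transplanted tumour line at 1 end point, each heart is 1 mouse, and n = 3 limits the precision of every value below.

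Cancer cachexia is the loss of muscle and fat that accompanies a tumour. In this model the heart loses mass along with the skeletal muscles other than the soleus (SOL). A heart sample contains cardiomyocytes, fibroblasts, endothelium, the outer mesothelial layer, resident immune cells and the blood left in its vessels and chambers. Young red cells still carry RNA for haem synthesis, membrane proteins and the ubiquitin enzymes that strip the cell of its organelles, and this RNA is lost as they mature. In such bulk samples, fewer cells of a type and less RNA per cell cannot be told apart. The label of the tissue was borne out by its markers. Tnnt2, the cardiac troponin T, lay between 12.93 and 13.02 log2 intensity in the 6 hearts, near the top of the scale, and Mylpf, the fast skeletal light chain, between 3.54 and 4.25.

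The 6 mice differed in body mass and heart mass at the end. Body mass at day 19, as a percentage of the mass at the start, was 79.8, 82.6 and 77.5% in T replicates 1, 2 and 3, and 87.8, 100.9 and 82.2% in T + WBV replicates 1, 2 and 3. Heart mass was 111.8, 117.6 and 119.3 mg in T and 138, 140.9 and 124.6 mg in T + WBV, so every trained heart was heavier than every untrained one. The difference of 18.3 mg had an exact two-sided permutation p of 0.1, the smallest that 3 against 3 mice allow, and an adjusted p of 0.3 over the 3 masses tested. Body mass (difference 10.3 percentage points, exact permutation p = 0.2) and carcass mass (2.80 g, exact permutation p = 0.3) overlapped between the groups.

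T + WBV replicate 2, the mouse that kept its body mass, also stood apart on the array. It had 211 of the 18820 genes more than 1 log2 unit from the mean of T. The other T + WBV hearts had 42 and 28, and the C hearts 423 to 461. The T hearts had 30, 18 and 13, each counted from the mean of the other T hearts. T + WBV replicates 1 and 3 correlated with the T hearts at 0.993 to 0.994, as the T hearts did with each other. For T + WBV replicate 2 the correlation with the T hearts was 0.988 to 0.989. The acute phase genes marked the same heart. Lcn2 (lipocalin) was at 10.58, 10.73 and 10.72 in T and at 10.59, 7.35 and 11.05 in T + WBV, and Serpina3n at 11.66, 11.84 and 11.76 in T and 11.71, 9.49 and 11.88 in T + WBV. Only replicate 2 of T + WBV was low. Fkbp5, a glucocorticoid target, was likewise at 9.49, 9.49 and 9.47 in T and at 9.11, 7.57 and 9.61 in T + WBV. The differences of the leading genes and the medians of the gene lists below are therefore given with this heart and without it.

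No gene passed the study's threshold, an adjusted p under 0.01, for T + WBV against T in the heart (0 of 18820 genes, 0%; limma, Benjamini-Hochberg adjustment over all genes). At an adjusted p under 0.05, 2 genes passed (0.0106% of those tested), Ky and Rsad2, both higher in T + WBV. An unadjusted p under 0.05 was reached by 1407 genes (7.48%), of which 810 were higher (4.3%) and 597 lower (3.17%). All 3 T + WBV hearts were above all 3 T hearts for 1144 genes (6.08%) and below them for 1055 (5.61%), and the median difference over all genes was 0.00 on the log2 scale. A difference above 1 log2 unit was seen for 17 genes and one below −1 for 7. The intensity-based moderated t-statistic, the method of the study, called 0 genes as well and had 1412 at an unadjusted p under 0.05.

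**Figure D1:**
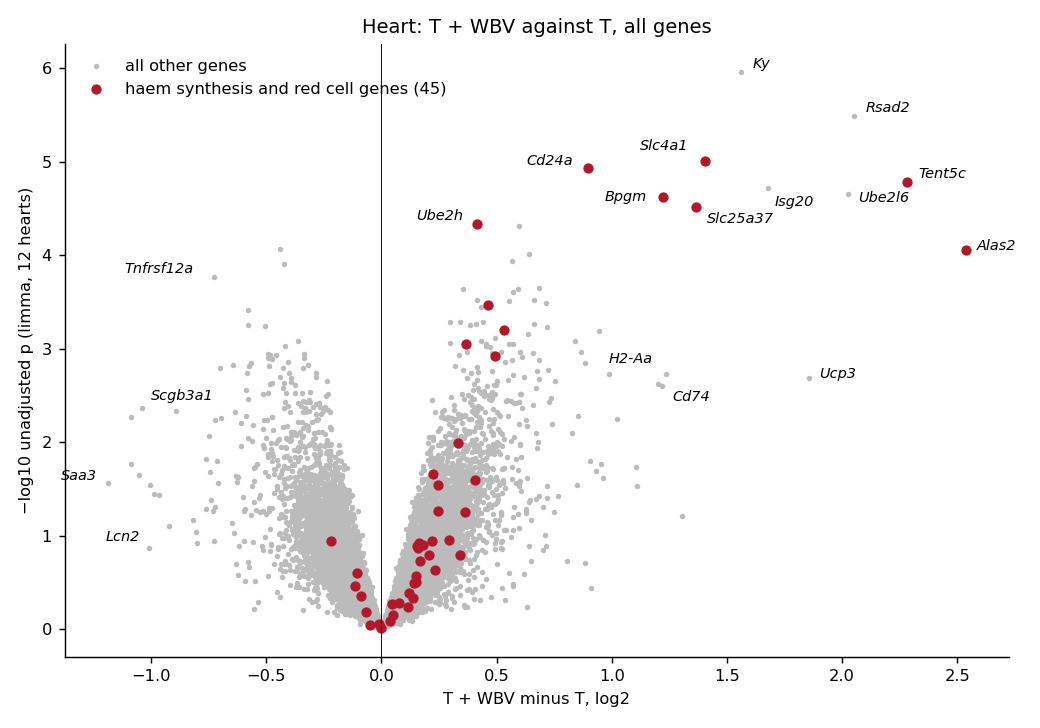
Difference between T + WBV and T hearts in log2 units (x axis) against −log10 of the unadjusted p from limma (y axis), 1 point per gene, with the 45 measured haem synthesis and red cell genes in red. Ky, Rsad2 and a run of red cell genes stand at the upper right, and no gene stands as far out on the lower side.

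Ky, the kyphoscoliosis peptidase, a muscle protein of the Z-disc that binds filamin, had the smallest p of all genes. Its level was 4.28, 3.97 and 4.05 in T replicates 1, 2 and 3, and 5.54, 6.20 and 5.25 in T + WBV replicates 1, 2 and 3, in log2 intensity. The groups did not overlap. Ky was higher in T + WBV by 1.56 log2 units (SE 0.19, adjusted p = 0.0205). Without T + WBV replicate 2 the difference was 1.30 and passed the threshold of 0.01 (limma, adjusted p = 0.00722). Over the 6 left-out mice the difference ranged from 1.30 to 1.77 and its adjusted p from 0.00249 to 0.235. The C hearts had 6.17, 6.47 and 6.41 and the C + WBV hearts 6.19, 6.28 and 6.48, so that the mean of the trained tumour hearts lay between those of T and C, with T + WBV replicate 2 within the range of C. T was lower than C by a difference of −2.25 (adjusted p = 3.92e-05), among 1081 genes called for T against C (5.74%), a comparison that uses the same T hearts. Of the 30 measured Z-disc, titin-linked and mechanosensing genes, Ky was the only 1 to pass an adjusted p of 0.05, 2 had no overlap upwards (6.67%, against 6.08% of all genes) and 2 downwards (6.67%, against 5.61%), and the median difference was −0.01, or −0.02 without T + WBV replicate 2. By correlation over the 6 hearts, the genes most like Ky were Tmem9, a lysosomal membrane protein (Pearson r = 0.992), Fpr-rs6 (0.983) and Cd209f (0.981), and those most like Rsad2 were Fap (0.998), Krt12 (0.994) and Isg20 (0.987). These are a description, since the 354 genes compared had been chosen for a difference between the same groups (unadjusted p under 0.01), which by itself makes such correlations high. Tmem9 stood at 5.06, 5.00 and 5.06 in T and 5.54, 5.72 and 5.36 in T + WBV.

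Genes of maturing red cells made up most of the remaining top of the list. Slc4a1, the band 3 anion exchanger of the red cell membrane, was at 4.76, 4.27 and 4.47 in T and at 6.21, 5.97 and 5.53 in T + WBV. The 3 trained hearts were all above the untrained ones, and also above the C hearts at 4.97, 4.94 and 5.50. Slc4a1 was higher by 1.40 log2 units (SE 0.21, adjusted p = 0.0553), and 1.37 without T + WBV replicate 2. Cd24a, a surface glycoprotein of developing red and B cells, was at 5.93, 5.74 and 5.57 in T and 6.85, 6.54 and 6.53 in T + WBV, again without overlap (difference 0.90, SE 0.14, adjusted p = 0.0553). Cd24a was higher in the skeletal muscles of these mice than in their hearts, and which cells carried its RNA was not tested.

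In haem synthesis, the gap was wide for the first enzyme and the iron importer and small for the rest. Alas2, the erythroid aminolevulinate synthase that starts haem synthesis, was at 8.35, 7.54 and 5.83 in T and at 9.83, 10.29 and 9.21 in T + WBV. The T hearts spread over more than 2 log2 units, and the lowest of them was the mouse with the lowest body mass of the 6. The difference was 2.54 (SE 0.47, adjusted p = 0.127), 2.28 without T + WBV replicate 2 and 1.83 without T replicate 3. Slc25a37, the mitochondrial iron importer mitoferrin, was at 6.46, 6.19 and 5.90 in T and 7.65, 8.00 and 6.99 in T + WBV (difference 1.37, SE 0.23, adjusted p = 0.0635). Fech, the ferrochelatase that ends the pathway, was at 8.33, 8.09 and 7.83 in T and 8.56, 8.81 and 8.35 in T + WBV (difference 0.49, adjusted p = 0.354). Alad, Uros, Urod, Cpox and Ppox, the enzymes between Alas2 and Fech that were measured, differed by 0.15 to 0.22, and of these 5 Uros alone had no overlap. The groups did not overlap for Alas2, Slc25a37 and Fech, though for Fech T replicate 1 and T + WBV replicate 3 were almost level.

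The promoter of Alas2 is shown because GATA factors drive red cell genes. These are the 250 bases before its start in the RefSeq table for GRCm38.p6, chrX:150547167-150547416, plus strand, with the only match to AGATAA, searched on both strands, in capitals:

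Alas2: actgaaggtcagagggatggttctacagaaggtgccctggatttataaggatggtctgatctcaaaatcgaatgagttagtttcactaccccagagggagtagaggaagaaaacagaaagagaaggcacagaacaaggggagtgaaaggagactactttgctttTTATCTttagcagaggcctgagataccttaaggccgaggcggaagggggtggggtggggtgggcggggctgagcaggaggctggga

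The match begins at −86, counted from the start. Of the 32851 promoters of this table, 9.99% hold AGATAA within the same length, and the promoters of Tent5c and Bpgm hold none, so the letters are shown as a description of the sequence. The motif was chosen after the leading genes had been seen.

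Further genes of red cell metabolism and RNA handling also had no overlap between the groups. Bpgm, which makes the bisphosphoglycerate that loosens the hold of haemoglobin on oxygen, was at 6.62, 6.18 and 6.18 in T and 7.69, 7.93 and 7.01 in T + WBV (difference 1.22, SE 0.20, adjusted p = 0.0561). Tent5c, a cytoplasmic poly(A) polymerase, was at 7.08, 6.17 and 5.42 in T and 8.63, 8.95 and 7.93 in T + WBV (difference 2.28, SE 0.36, adjusted p = 0.0561). For both genes every trained heart was above every untrained one, T + WBV replicate 3 was the lowest of its group and T replicate 1 the highest. Ncoa4, the receptor that sends ferritin to the lysosome, differed by 0.46 (adjusted p = 0.249) with T at 8.39, 8.45 and 8.40 and T + WBV at 8.93, 9.09 and 8.60. Of the genes that clear organelles and ribosomes in these cells, Bnip3l differed by 0.37 (adjusted p = 0.345), Ube2o by 0.53 (adjusted p = 0.310) and Ube2h, a ubiquitin-conjugating enzyme, by 0.42 (adjusted p = 0.0825). None of these had overlapping groups. Without T + WBV replicate 2 the differences were 1.03 for Bpgm, 2.06 for Tent5c, 1.14 for Slc25a37 and 0.95 for Cd24a.

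A list of 45 measured haem synthesis and red cell genes, written after the leading genes had been seen and so no independent evidence of a direction, had 16 members without overlap upwards (35.6%, against 6.08% of all genes) and 0 downwards, with a median difference of 0.18, and 0.18 also without T + WBV replicate 2. The 5 measured members of the erythroid marker list differed by 0.25 to 2.54 with a median of 1.22, or 1.03 without that heart. Of these, 4 did not overlap (80%, against 6.08% of all genes upwards). The haemoglobin genes themselves lie on probe sets that carry several symbols and are not analysed here. Genes of earlier red cell stages were near the bottom of the scale and overlapped. The same held for other members of the list, such as Epb42 (difference 0.29), Rhag (0.14), Kel (0.07) and Trim58 (−0.22). The overlaps therefore do not separate genes of early from those of late stages. Klf1, the erythroid Krüppel-like factor, was at 2.46, 3.06 and 2.82 in T and 2.96, 2.91 and 2.93 in T + WBV, and Gata1 was at 2.80, 3.07 and 2.84 in T and 3.53, 2.98 and 3.29 in T + WBV. Tfrc, the transferrin receptor, was at 5.61, 6.04 and 6.14 in T and 5.50, 6.83 and 5.31 in T + WBV, against 7.07 to 8.39 in C. Platelet genes, the other RNA carried by blood, had 2 of 13 measured members without overlap upwards (15.4%, against 6.08% of all genes). Their median difference was 0.29, or 0.36 without T + WBV replicate 2. Treml1 was the platelet gene of smallest p (difference 0.71, adjusted p = 0.245), and Pf4 was at 7.80, 7.83 and 7.90 in T and 8.48, 8.07 and 7.93 in T + WBV (difference 0.32). The amount of blood left in each heart was not tested.

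**Figure D2:**
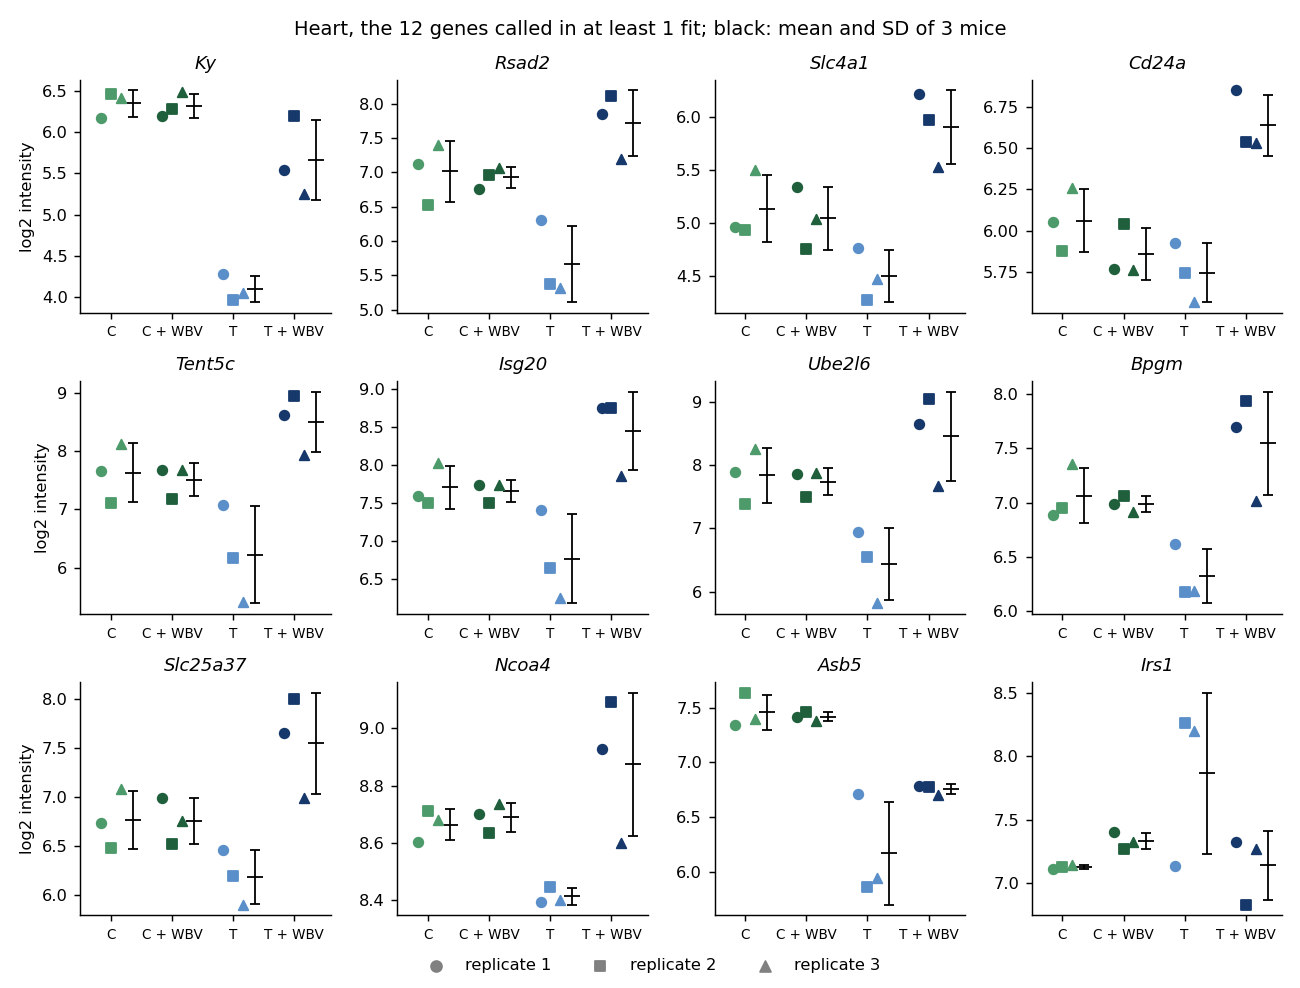
Level in log2 intensity (y axes, which do not start at 0) of the 12 genes that passed an adjusted p of 0.01 in at least 1 of the fit of 12 hearts, the fits with 1 mouse left out and the fit of all 58 arrays, in the 4 groups of hearts. Each symbol is 1 mouse and the black bars are the mean and SD of 3 mice. The T + WBV hearts are above the T hearts in 10 of the 12 panels, and Asb5 and Irs1 overlap through T replicate 1.

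Of the interferon-response genes, 1 of 43 measured passed an adjusted p of 0.05. Rsad2 (viperin), an antiviral enzyme induced by interferon, was at 6.30, 5.37 and 5.31 in T and at 7.85, 8.12 and 7.19 in T + WBV. The groups did not overlap, and the C hearts, at 7.12, 6.53 and 7.40, fell between them or near the lowest trained heart. The difference was 2.05 log2 units (SE 0.28, adjusted p = 0.0303), 1.85 without T + WBV replicate 2, and 1.85 to 2.37 over the 6 left-out mice. Its adjusted p from limma ranged from 0.00377 to 0.340 over these 6 fits. The promoter of Rsad2 is shown because it holds the response element for interferon. The 250 bases before the start are chr12:26456453-26456702 of GRCm38.p6, minus strand, from RefSeq, with the match to GAAA, any 2 bases and GAAA, searched on both strands and found on the opposite one, in capitals:

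Rsad2: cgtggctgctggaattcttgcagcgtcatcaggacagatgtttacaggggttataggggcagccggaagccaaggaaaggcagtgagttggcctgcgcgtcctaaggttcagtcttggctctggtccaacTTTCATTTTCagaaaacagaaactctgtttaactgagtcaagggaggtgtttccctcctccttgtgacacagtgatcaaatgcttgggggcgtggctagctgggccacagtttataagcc

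The match begins at −120. Such a match is found in 2.98% of the 32851 promoters, and neither Isg20 nor Ube2l6 holds one in this window.

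Isg20, an interferon-induced exonuclease, was at 7.41, 6.66 and 6.25 in T and 8.75, 8.74 and 7.86 in T + WBV (difference 1.68, SE 0.27, adjusted p = 0.0561). Ube2l6, the enzyme that passes ISG15 to its targets, was at 6.95, 6.54 and 5.81 in T and 8.65, 9.06 and 7.67 in T + WBV (difference 2.02, SE 0.33, adjusted p = 0.0561). For both, T replicate 1 was the highest of the untrained hearts and T + WBV replicate 3 the lowest of the trained ones. Without T + WBV replicate 2 the differences were 1.53 for Isg20 and 1.73 for Ube2l6. Neither is among the members of the interferon list. Of that list, 7 of 43 members had an unadjusted p under 0.05 and were higher, against 4.3% of all genes. Of the 43, 13 did not overlap upwards (30.2%, against 6.08% of all genes) and 1 downwards (2.33%, against 5.61%). The median was 0.29, or 0.16 without T + WBV replicate 2. Isg15 differed by 0.63 (adjusted p = 0.441), at 3.86, 4.10 and 3.87 in T and 4.65, 4.92 and 4.14 in T + WBV, and Eif2ak2, the kinase PKR, by 0.47 (adjusted p = 0.417). Levels of both were highest in T + WBV replicate 2.

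The EDL and SOL of the same mice, a fast and a slow muscle of the hindlimb, were used to ask whether the difference was particular to the heart. Trained and untrained tumour bearing mice differed more in heart than in EDL for 4 genes at an adjusted p under 0.01 (0.0213% of 18820; limma on all 58 arrays with the mouse as a random block), and more in heart than in SOL for 5 (0.0266%). Slc4a1, Tent5c, Isg20 and Ube2l6 passed in both comparisons and Cd24a against SOL. For Slc4a1 the heart exceeded EDL by 1.40 (SE 0.21, adjusted p = 0.000236) and SOL by 1.21 (SE 0.21, adjusted p = 0.00147). In the 3 T mice Slc4a1 was at 4.31, 3.97 and 4.05 in EDL, and in the 3 T + WBV mice at 4.25, 4.12 and 4.24, which overlapped. In their SOL it was at 4.03, 3.93 and 3.97 in T and 4.70, 4.27 and 4.22 in T + WBV, without overlap but closer together than in the heart. These muscle levels of Slc4a1, like those of the T hearts, lay below 5.16, the median level of all genes in the hearts. Whether a low level narrows the difference in muscle was not tested. For Tent5c the excess of the heart was 2.04 over EDL (adjusted p = 0.0063) and 2.22 over SOL (adjusted p = 0.00147). In the EDL of the same mice Tent5c was at 5.43, 5.01 and 4.81 in T and 5.35, 5.65 and 5.87 in T + WBV, which overlapped. For Ube2l6 the excess was 1.74 (adjusted p = 0.0063) and 1.77 (adjusted p = 0.00196), and for Isg20 1.45 (adjusted p = 0.00871) and 1.59 (adjusted p = 0.00147). Among these 6 mice Ube2l6 had no overlap in EDL either, at 5.70, 5.46 and 4.94 in T and 5.95, 5.92 and 5.87 in T + WBV, with a smaller gap than in the heart. A trained tumour bearing mouse that gave no heart array had Ube2l6 at 4.95 in EDL, within the range of these T mice. Cd24a was at 8.50, 8.63 and 8.97 in the SOL of the T mice and at 8.56, 8.50 and 8.54 in the T + WBV mice. In EDL it was at 10.36, 10.33 and 10.58 in T and 10.69, 10.31 and 10.50 in T + WBV. The groups overlapped in both muscles, and both were above the level of Cd24a in the heart. In the heart its difference exceeded that in SOL by 1.09 (adjusted p = 0.000322) and that in EDL by 0.83 (adjusted p = 0.0199). These fits draw on 11 tumour bearing mice in EDL and SOL. With the 6 mice that gave hearts alone, 0 genes passed in either comparison (smallest adjusted p 0.497 for EDL and 0.290 for SOL, an unadjusted p under 0.05 being reached by 1039 and 1030 genes), and the count against EDL was 1, Slc4a1, without T + WBV replicate 2, without T + WBV replicate 1, and without T replicate 2 or 3. Against SOL it was 1, Cd24a, without T + WBV replicate 2 or T replicate 2, and 0 without T + WBV replicate 1 or T replicate 3.

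Ky and Rsad2 did not pass this test. Ky was at 5.35, 5.13 and 4.81 in the EDL of T replicates 1, 2 and 3 and at 6.15, 9.41 and 5.16 in the EDL of the T + WBV mice, and in SOL at 5.38, 4.19 and 4.50 in T and 5.35, 7.29 and 5.31 in T + WBV. The mouse of T + WBV replicate 2 had the highest Ky level of these 6 mice in all 3 tissues. Rsad2 was at 4.51, 4.07 and 3.97 in the EDL of T and 4.49, 4.99 and 5.20 in that of T + WBV, with overlap, and in SOL at 4.78, 4.20 and 3.81 in T and 4.87, 5.32 and 4.98 in T + WBV, without. Bpgm did not overlap in either muscle, with EDL at 6.33, 6.03 and 6.32 in T and 6.35, 8.07 and 6.47 in T + WBV, and SOL at 7.01, 6.02 and 6.22 in T and 7.16, 7.28 and 7.10 in T + WBV. Among these 6 mice, a higher level in the trained mice was thus also seen in skeletal muscle for some of these genes. Over all tumour bearing mice with muscle arrays, Bpgm differed by 0.55 in EDL (limma, adjusted p = 0.87) and by 0.49 in SOL (limma, adjusted p = 0.93). An untrained tumour bearing mouse that gave no heart array had Ky at 8.16 in EDL. The heart exceeded EDL by 0.46 (SE 0.71, adjusted p = 1.00) for Ky and by 1.66 (SE 0.41, adjusted p = 0.285) for Rsad2. In the fit of all 58 arrays, in which all tissues share 1 estimate of the spread, the heart comparison of T + WBV and T called 7 genes (0.0372%), all higher. They were Slc4a1, Ube2l6, Isg20, Tent5c, Slc25a37, Cd24a and Rsad2. Ky was not called there (difference 1.39, adjusted p = 1.00).

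**Figure D3:**
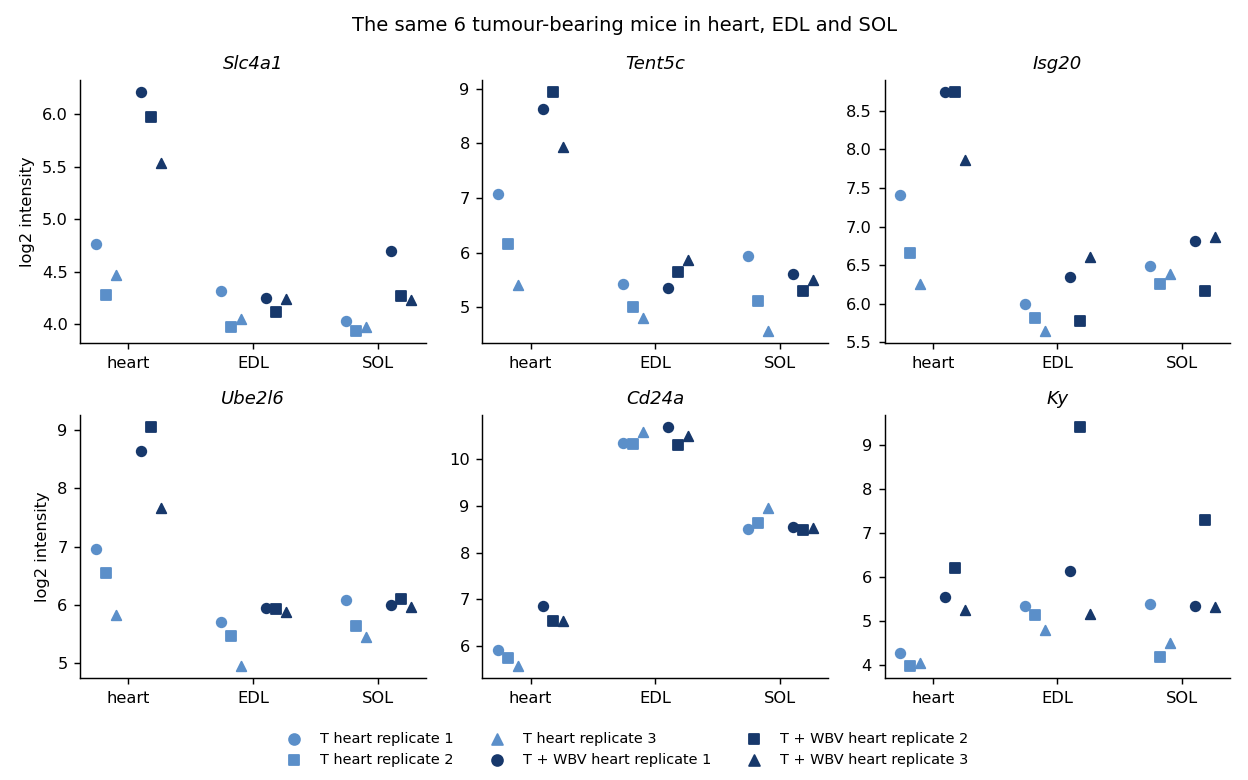
Level in log2 intensity (y axes, which do not start at 0) of 6 genes in the heart, EDL and SOL of the same 3 T and 3 T + WBV mice. Each symbol is 1 mouse, numbered by its heart replicate. The 2 groups are apart in the heart for each gene, while in EDL the groups overlap for Slc4a1 and the level of Ky in T + WBV replicate 2 is 9.41.

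In mice without a tumour, the following leading genes differed little between trained and untrained hearts. They had been chosen for a difference with the tumour, and no count over all genes is given for C + WBV against C. The difference between C + WBV and C was −0.03 for Ky, −0.09 for Rsad2, −0.09 for Slc4a1, −0.15 for Alas2 and −0.13 for Tent5c, in log2 units. The test of whether the training difference was larger with the tumour than without it called 0 of 18820 genes (0%; limma, adjusted p under 0.01), although 1105 genes (5.87%) reached an unadjusted p under 0.05, and 0 were called by the intensity-based moderated t-statistic. Grtp1, a TBC domain protein, had the smallest p of this test (1.02, SE 0.17, adjusted p = 0.32), followed by Ky (1.59, SE 0.27, adjusted p = 0.32), Cd24a (1.10, SE 0.19, adjusted p = 0.32), Rsad2 (2.14, SE 0.39, adjusted p = 0.375) and, in the other direction, Tnfrsf12a (−1.08, SE 0.20, adjusted p = 0.375). Against the C hearts, T was lower by a difference of −1.35 for Rsad2 (adjusted p = 0.00582) and by differences of −1.41 for Ube2l6 (adjusted p = 0.0111) and −1.80 for Alas2 (adjusted p = 0.0202), of which the first passed 0.01. T + WBV minus C was 0.70 for Rsad2 (adjusted p = 0.154), 0.61 for Ube2l6 (adjusted p = 0.31) and 0.74 for Alas2 (adjusted p = 0.409). These 3 comparisons share their T, T + WBV and C hearts with each other.

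MHC class II and cell cycle genes also had many members without overlap. Cd74, the invariant chain that guides MHC class II molecules, was at 6.94, 6.49 and 6.31 in T and 7.46, 8.63 and 7.31 in T + WBV, against 8.27 to 9.43 in C. H2-Aa, an alpha chain of MHC class II, was at 5.07, 4.65 and 4.67 in T and 5.46, 6.65 and 5.98 in T + WBV. T + WBV replicate 2 was the highest of the 6 hearts for both, and neither passed the test. The differences were 1.22 for Cd74 (SE 0.33, adjusted p = 0.404) and 1.23 for H2-Aa (SE 0.32, adjusted p = 0.377), and 0.80 and 0.93 without that heart. Of the 9 measured MHC class II genes, 5 did not overlap upwards (55.6%, against 6.08% of all genes) and the median difference was 0.49, or 0.29 without T + WBV replicate 2. Of the 22 cell cycle genes, 8 did not overlap upwards (36.4%, against the same 6.08%) with a median of 0.20, or 0.09 without it. Their levels were low, as for Ccna2, the cyclin of the S phase, at 3.31, 3.08 and 3.14 in T and 3.65, 4.15 and 3.33 in T + WBV (difference 0.53, adjusted p = 0.578), and Bub1b, a checkpoint kinase (0.32, adjusted p = 0.578). The lymphocyte markers were level in 5 hearts and high in T + WBV replicate 2, with a mean level of 3.34, 3.25 and 3.36 in T and 3.34, 4.05 and 3.34 in T + WBV. Their median difference was 0.27, or −0.04 without that heart. Cd4 was the marker of smallest p (difference 0.75, adjusted p = 0.391), and its part in the MHC class II result was not tested.

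Some matrix genes of fibroblasts had no overlap between the groups, while the matrix list as a whole overlapped. Lum (lumican), a proteoglycan that spaces collagen fibrils, was at 8.44, 8.16 and 8.12 in T and 8.67, 8.66 and 8.62 in T + WBV, and Sparc, a matrix glycoprotein, at 10.56, 10.38 and 10.44 in T and 10.75, 10.75 and 10.78 in T + WBV. For these 2 genes the trained hearts lay closer together than the untrained ones. The differences were 0.41 for Lum (SE 0.09, adjusted p = 0.243) and 0.30 for Sparc (SE 0.07, adjusted p = 0.345). Col3a1, a chain of fibrillar collagen, differed by 0.68 (SE 0.17, adjusted p = 0.357) and Fap, a protease of activated fibroblasts, by 0.57 (SE 0.12, adjusted p = 0.219), both without overlap. Of 39 measured collagen and matrix genes, 23 were above 0, 7 did not overlap upwards (17.9%, against 6.08% of all genes) and 0 downwards (against 5.61%), and the median was 0.12, or 0.14 without T + WBV replicate 2. The mean level of the list was 7.72, 7.61 and 7.54 in T and 7.72, 7.52 and 7.88 in T + WBV, lowest of all in T + WBV replicate 2. The mesothelial markers, which label the outer surface of the heart, had 4 of 8 without overlap upwards (50%, against 6.08% of all genes) and a median of 0.41, or 0.37 without T + WBV replicate 2. Rspo1, a secreted activator of Wnt signalling, was at 5.55, 5.68 and 5.63 in T and 6.23, 6.34 and 6.32 in T + WBV (difference 0.68, adjusted p = 0.377), and Upk3b (uroplakin) at 6.64, 6.73 and 6.47 in T and 7.06, 7.50 and 7.30 in T + WBV (difference 0.67, adjusted p = 0.411).

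Genes of fatty acid use leaned upwards with wide scatter between mice. Ucp3, an uncoupling protein of muscle mitochondria, was at 7.13, 4.86 and 5.79 in T and 8.77, 7.42 and 7.15 in T + WBV. T replicate 1 almost reached the level of the lowest trained heart. The difference was 1.85 (SE 0.49, adjusted p = 0.385). Angptl4, an inhibitor of lipoprotein lipase, was at 4.88, 4.76 and 4.64 in T and 6.76, 5.45 and 5.14 in T + WBV (difference 1.02, SE 0.31, adjusted p = 0.441), and Cpt1a, the transferase that brings fatty acids into mitochondria, differed by 0.66 (adjusted p = 0.433) with overlap. Pdk4, a kinase that turns off pyruvate oxidation, was at 11.57, 9.94 and 9.86 in T and 12.26, 10.67 and 11.75 in T + WBV (difference 1.11, adjusted p = 0.578). Of 35 measured genes of this list, 13 had an unadjusted p under 0.05 and were higher, against 4.3% of all genes, but 2 did not overlap (5.71%), close to the share of all genes. The median was 0.17, or 0.16 without T + WBV replicate 2.

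Fewer genes were clearly lower in the trained tumour hearts. Tnfrsf12a (Fn14), the receptor of the cytokine TWEAK, was at 7.27, 7.25 and 7.17 in T and 6.32, 6.67 and 6.53 in T + WBV, with C at 6.61, 7.05 and 6.68. The difference was −0.72 (SE 0.14, adjusted p = 0.188), and −0.81 without T + WBV replicate 2. Klf5, a Krüppel-like transcription factor, was at 4.64, 4.36 and 4.63 in T and 3.99, 4.07 and 3.84 in T + WBV (difference −0.58, SE 0.13, adjusted p = 0.298). Myocd (myocardin), the coactivator that drives cardiac and smooth muscle genes, was at 8.60, 8.74 and 8.69 in T and 7.98, 8.43 and 8.11 in T + WBV (difference −0.50, SE 0.11, adjusted p = 0.298). Cnn1, the smooth muscle calponin, was at 6.43, 6.97 and 6.57 in T and 5.99, 5.80 and 5.90 in T + WBV (difference −0.76, adjusted p = 0.559). The groups did not overlap for these 4 genes, and none of them passed the test. Genes called higher in T than in C whose trained hearts all lay below the untrained ones included Scgb3a1, a secretoglobin (difference −0.89, adjusted p = 0.44), C4a of the complement cascade (−0.75, adjusted p = 0.515) and Clec10a, a lectin of macrophages (−0.69, adjusted p = 0.441). T + WBV replicate 2 was the lowest of the 6 hearts for Scgb3a1 and Clec10a, and without it the differences were −0.50 and −0.46.

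Signalling and growth genes included members on either side. Mstn (myostatin), a brake on muscle growth, was at 3.21, 2.90 and 3.25 in T and 3.63, 4.09 and 3.45 in T + WBV (difference 0.60, adjusted p = 0.417), and Fstl1, a secreted follistatin-like protein, differed by 0.37 (adjusted p = 0.351). Akt1, the kinase of the insulin pathway, was at 9.26, 9.50 and 9.55 in T and 9.13, 9.20 and 9.08 in T + WBV (difference −0.30, adjusted p = 0.436). Irs1, an insulin receptor substrate, was at 7.14, 8.26 and 8.20 in T and 7.33, 6.83 and 7.27 in T + WBV. T replicate 1 lay among the trained hearts, so the groups overlapped. The difference was −0.72 (adjusted p = 0.441), and −1.09 (adjusted p = 0.00596) without T replicate 1. Asb5, an ankyrin repeat protein of muscle, was at 6.71, 5.86 and 5.94 in T and 6.79, 6.78 and 6.70 in T + WBV, with the same heart overlapping (difference 0.59, and 0.86 without it). Of the 25 genes of this list, 3 did not overlap upwards (12%, against 6.08% of all genes) and 2 downwards (8%, against 5.61%), and the median was 0.03, or 0.09 without T + WBV replicate 2. Kcnip2, a subunit of the cardiac transient potassium channel, was at 8.82, 8.33 and 8.81 in T and 8.93, 9.28 and 9.08 in T + WBV (difference 0.44, adjusted p = 0.417), and the median of the 32 calcium handling and channel genes was 0.03, or −0.04 without T + WBV replicate 2.

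Lists of the contractile tissue, the vessels and the wasting programme had medians near 0, several of which changed sign without T + WBV replicate 2. The median difference was −0.02 over 11 cardiomyocyte markers (−0.05 without this heart), −0.01 over 12 endothelial markers (0.06 without) and 0.01 over 64 genes of the respiratory chain and ATP synthase (−0.04 without). It was −0.03 over 10 smooth muscle and pericyte markers (−0.12 without), of which 2 did not overlap downwards (20%, against 5.61% of all genes), and 0.00 over 24 ubiquitin ligases and atrophy genes (0.10 without). Fbxo32 (atrogin), a ubiquitin ligase of wasting muscle, was at 9.35, 9.62 and 9.40 in T and 10.17, 9.52 and 9.99 in T + WBV (difference 0.43, adjusted p = 0.498). The medians of the acute phase list (−0.13 over 30 genes) and of the glucocorticoid and metallothionein list (−0.28 over 19 genes) were 0.11 and 0.06 without T + WBV replicate 2, so that their sign rested on this heart. The 25 genes of the amino acid response had 4 members without overlap downwards (16%, against 5.61% of all genes) and a median of −0.05, or −0.06 without T + WBV replicate 2, with Asns, the asparagine synthetase, at 5.90, 5.70 and 5.91 in T and 5.54, 5.21 and 5.49 in T + WBV (difference −0.42, adjusted p = 0.609). Of the immune cell lists, the median was 0.19 over 13 neutrophil markers (0.35 without T + WBV replicate 2) and 0.00 over 14 macrophage markers (0.13 without). Over all 34 lists, 0 members passed an adjusted p of 0.01.

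**Figure D4:**
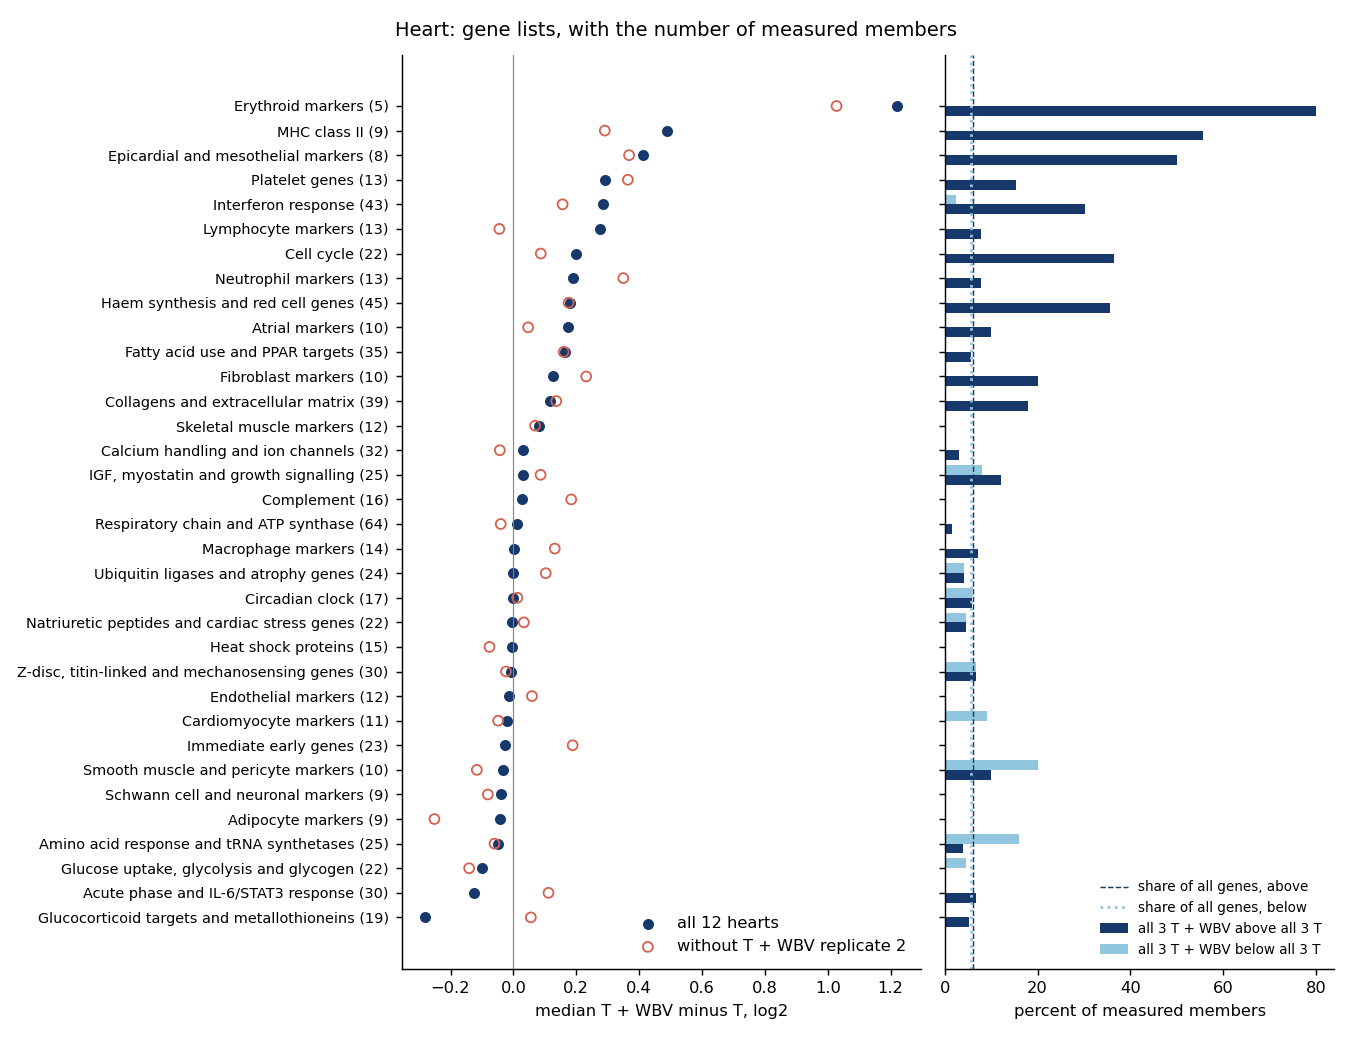
Left, the median difference between T + WBV and T hearts in log2 units for each gene list, with all hearts (filled) and without T + WBV replicate 2 (open). Right, the percentage of measured members whose 3 T + WBV values lay all above (dark) or all below (light) the 3 T values, with lines at the shares of all genes, 6.08 and 5.61%. Erythroid markers, MHC class II and mesothelial markers have the highest medians, and the haem synthesis and platelet lists were added after the data were seen.

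With each mouse left out in turn, the leading genes kept their direction. Leaving out 1 mouse cannot reverse it where the groups do not overlap. Of all genes, 53.3% kept their sign in all 6 fits. The difference of Slc4a1 ranged from 1.25 to 1.59, that of Tent5c from 1.88 to 2.71, that of Isg20 from 1.42 to 2.00 and that of Bpgm from 1.03 to 1.49. The widest range was that of Alas2, 1.83 to 3.09. The number of genes called moved more, from 0 to 8. It was 8 without T + WBV replicate 3, the lowest of the trained hearts for most red cell genes, 5 without T replicate 1, the highest of the untrained ones, 1 without T + WBV replicate 2 and 0 without each of the other 3 mice. Over all genes, 84 had an unadjusted p under 0.01 in every one of these 6 fits. Among them were Ky, Rsad2, the red cell genes from Slc4a1 to Alas2 and, among the lower ones, Tnfrsf12a, Klf5 and Myocd.

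**Figure D5:**
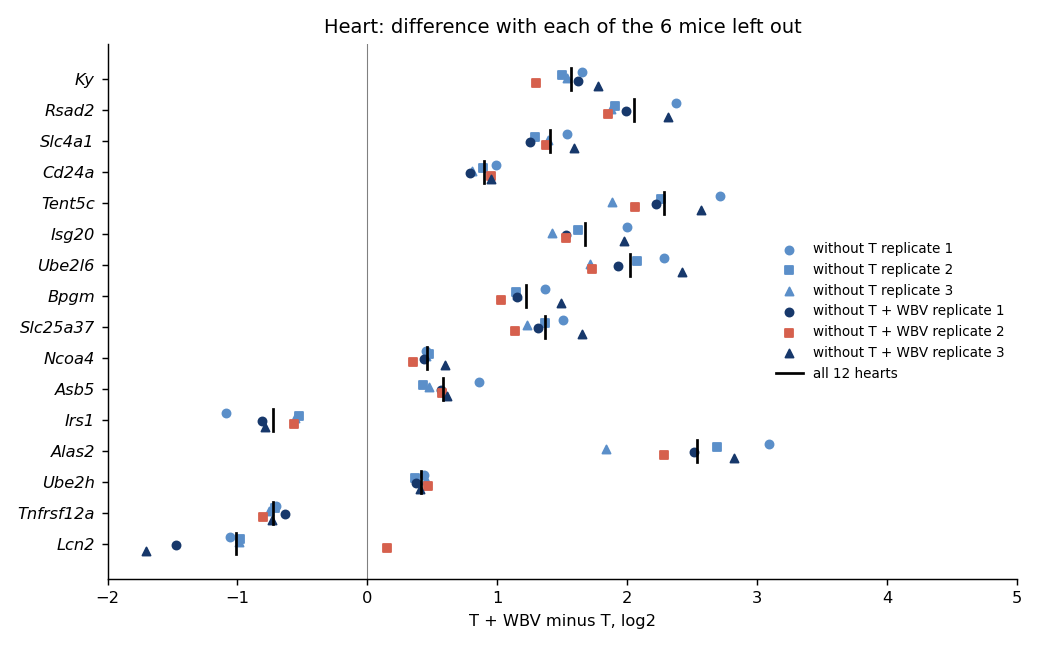
Difference between T + WBV and T hearts in log2 units (x axis) for the 12 genes called in at least 1 fit and for Alas2, Ube2h, Tnfrsf12a and Lcn2, with all 12 hearts (black line) and with each of the 6 mice left out (symbols). All differences keep their sign except that of Lcn2, which is 0.15 without T + WBV replicate 2 (red square). Where the groups do not overlap, leaving out 1 mouse cannot change the sign.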

How the data were processed

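RNA of each tissue was hybridised to 1 Mouse Gene 1.1 ST array per mouse. The deposited values are log2 intensities that the authors made with the robust multi-array average (RMA, version not given in the sources used here), normalized before deposit. The study's methods describe a custom gene definition, whereas the deposited table has 35556 probe sets, of which 21218 carried 1 gene symbol, 1881 several and 12457 none. Probe sets of 1 symbol were averaged to 18820 genes (1386 from several probe sets), and 21185 symbols matched RefSeq. No low-level filter was applied. The 12 hearts were fitted in 4 groups with limma 3.58.1 (R 4.3.3, intensity trend), and p-values were adjusted by Benjamini-Hochberg over all genes, with the study's threshold of 0.01. Tissues were compared over all 58 arrays with the mouse as a random block, and masses by exact permutation tests (SciPy 1.17.1). In data simulated for T + WBV against T over 18820 genes, differences of known size were added. Of the genes changed by 1 log2 unit 80% were called, and of those changed by 2, 100%. The simulation had independent normal noise and a set number of changed genes, which affects the adjusted p. Its shares do not carry over to these hearts, where Rsad2 (difference 2.05) and Tent5c (2.28) were not called at 0.01. The 0 genes called are therefore no evidence that no gene differed. Each heart is a separate mouse, and the number of arrays limits the precision.

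The groups, the gene lists (19 pathway and 13 cell marker lists) and the tests were chosen with earlier results of these data known, and no list is independent evidence. The red cell and platelet lists and the GATA motif were added after the leading genes were seen. Genes were named if called in the fit of the 12 hearts, in a fit with 1 mouse left out or in the fit of 58 arrays, if among the 12 largest differences each way without overlap and with an unadjusted p under 0.01, if leading their list, the interaction or a tissue comparison, or if most like Ky or Rsad2. Ky, Rsad2, Lcn2 and Serpina3n were part of the rule, and Fkbp5, Mylpf and further members of the red cell and platelet lists after their values were seen. Each mouse was left out in turn, and prior, weights, normalization, summary, block and covariate were varied.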

Additional observations from a re-analysis of the deposited data

Results flagged for a closer look

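T + WBV minus T was larger in the heart than in EDL by 1.40 log2 units for Slc4a1, 1.74 for Ube2l6, 2.04 for Tent5c and 1.45 for Isg20, each past an adjusted p of 0.01 in the test of the difference between tissues. It was larger in the heart than in SOL by 1.09 for Cd24a, 2.22 for Tent5c, 1.59 for Isg20, 1.21 for Slc4a1 and 1.77 for Ube2l6 by the same test.

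Among the leading genes, 40 sets of 1 gene in 1 group of 5 or 6 muscles of EDL or SOL were examined. Of these, 6 held a level far from the others, where chance gives about 5 percent for independent sets. The sets share the same mice, so they are not independent. Ky in EDL was at 8.16 in T replicate 3 and at 4.59 to 5.35 in the other T mice, and in SOL it was at 7.29 in T + WBV replicate 2 and at 5.31 to 5.38 in the other T + WBV mice. Slc4a1 in SOL was at 4.37 in T replicate 1 and at 3.92 to 4.05 in the others. Ube2l6 in EDL was at 4.95 in T + WBV replicate 3 and at 5.67 to 5.95 in the others. Slc25a37 in EDL was at 5.79 in T + WBV replicate 2 and at 5.27 to 5.41 in the others, and in SOL at 6.00 in T + WBV replicate 4 and at 5.44 to 5.55 in the others. Replicate numbers here are those of EDL and SOL, which are not always the mice of the hearts of that number. Groups of 3 hearts are too small for this check.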

How the results depend on the processing

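The count of genes called for T + WBV against T in the heart was 0 in the 12 hearts, 7 in the fit of all 58 arrays with or without the mouse block, 12 with array weights, 2 at an adjusted p of 0.05 and 0 to 8 with 1 mouse left out (8 without T + WBV replicate 3, 5 without T replicate 1, 1 without T + WBV replicate 2). It was 0 under each other alternative, and 0 for the interaction under all of them. At an adjusted p under 0.05 the count for T + WBV against T ranged from 0 to 39, the highest with array weights. It was 0 with only the 6 arrays of the 2 groups, with the replicate block, with 1 prior variance for all genes and with probe sets as units. The count for heart against EDL was 4, or 1 without the mouse block, 0 with only the 6 mice that gave hearts and 1 to 7 with 1 mouse left out. For heart against SOL it was 5, or 0 with only those 6 mice and 0 to 6 with 1 mouse left out. Over all genes, the deviations of same-numbered T and T + WBV hearts had correlations near 0 (r = −0.0017, −0.0319 and −0.0244). Such a measure over all genes cannot show whether the numbers pair the mice. With the replicate block 0 genes were called in the heart, 0 for the interaction, 1 against EDL and 4 against SOL.

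Without T + WBV replicate 2 the median of the endothelial markers was 0.059 in place of −0.01 and that of the lymphocyte markers −0.045. Medians near 0 also changed sign without it, with respiratory chain genes from 0.01 to −0.04, calcium handling from 0.03 to −0.04 and immediate early genes from −0.03 to 0.19, and those of complement (0.03 to 0.18) and of macrophage markers (0.00 to 0.13) moved. The difference of Lcn2 was 0.83 with body mass as a covariate and −1.70 to 0.15 with 1 mouse left out, that of Serpina3n 0.44 and −1.15 to 0.043, and that of Fkbp5 0.27 with the covariate. The excess of the heart over EDL for Ky was −0.25 with only the 6 mice. The cause of these changes was not tested. Tfrc, near 0 with all hearts, was at −0.52 without T + WBV replicate 2 and kept its sign in 2 of the 6 fits with 1 tumour bearing mouse left out, and Klf1 in 5 of 6.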
